A study of Rattus norvegicus with 56 samples.

Results

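Gene expression in the hippocampus was compared between aged-impaired (AI) and aged-unimpaired (AU) rats that had received a sham procedure. The members were the first arrays titled AI_Sham hippocampus and AU_Sham hippocampus, 4 animals in each group, which are 8 of the 56 arrays of the series, with 1 array for each animal. All 8 animals were male Long-Evans rats of 26 to 27 months that differed by cognitive status and for which the labels name no genetic change. The study's methods define AU rats as those that learned a hidden platform water maze as well as young rats and AI rats as those that learned it less well, but they describe this testing for the rats of its slice experiment, and how the 8 rats compared here were classified is not stated. Both groups shared the sham procedure, in which the rats were anesthetized lightly with isoflurane, sedated with dexmedetomidine and woken with Antisedan while the magnetic coil stood 20 cm from the head, and the dorsal hippocampus was frozen 48 h later. The same contrast could be read in 8 further aged rats, 3 AI_iTBS and 5 AU_iTBS, which had instead received intermittent theta burst stimulation (iTBS), a patterned form of repetitive magnetic stimulation of the brain. No maze score of an animal is given in the labels, and the status of a rat cannot be separated from what else came with it.

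The hippocampus is a folded sheet of excitatory neurons, in which granule cells of the dentate gyrus project to CA3 pyramidal cells and these to CA1, and local inhibitory interneurons set how strongly each field fires. It is needed for learning places, and in aged rats its interneurons, its calcium-dependent excitability and its resident immune cells, the microglia, are the parts most often studied in relation to memory. The tissue was bulk dorsal hippocampus, so fewer cells of a type and less RNA per cell cannot be told apart in any value below. Of 26 tested marker genes of CA1, of CA2 and CA3, and of the dentate gyrus, 23 were above background on all 8 arrays.

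Values are normalized log2 signals, on which 0 is the mean of an array and a difference of 1 is a 2-fold change. From 62.7% to 67.1% of the probes were well above background on the 8 arrays, with medians of 64.9% in AU_Sham and 65.6% in AI_Sham. Status was nearly tied to the slide, a glass carrier of several arrays. AU_Sham animals 2, 3 and 4 lay on slide 1 and AI_Sham animals 2, 3 and 4 on slide 2, all read in scan batch 1, whereas AU_Sham animal 1 and AI_Sham animal 1 shared slide 7, read in scan batch 3 on another scanner. The difference between animal 1 of each group is therefore the only comparison made within a slide, and it rests on 1 animal against 1. The hippocampi of AI_Sham animals 1 and 3 stood apart from the other 6 in markers of neighboring tissue. The summed level of 12 markers of the meninges and fibroblasts was 9.94 and 10.6 in these 2 animals, 9.12 and 8.82 in AI_Sham animals 2 and 4, and 8.60 to 9.44 in AU_Sham. The summed level of 14 markers of the choroid plexus was 10.8 and 9.85 in the same 2 animals, 7.31 and 7.62 in AI_Sham animals 2 and 4, and 5.63 to 7.88 in AU_Sham. Results that touch these markers are given below with and without AI_Sham animals 1 and 3, a setting chosen after the data were seen.

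No probe passed the test between AI_Sham and AU_Sham. Limma with a Benjamini-Hochberg adjusted p under 0.05 gave 0 calls among 32171 probes (0%). An unadjusted p under 0.05 was reached by 1279 probes (3.98%), of which 642 were higher in AI_Sham (2.00%) and 637 were lower (1.98%). The 4 AI_Sham animals lay above all 4 AU_Sham animals in 195 probes (0.606%) and below them in 225 (0.699%), and the difference was above 0 in 45.9% of the probes. The median SE of a difference was 0.18. With the slide as a block, 4 probes were called (0.0124%) and 11.3% reached an unadjusted p under 0.05, with 43.7% of the differences above 0. The 4 called there were lower in AI_Sham and included Capn5, a calcium-dependent protease, with a difference of -1.29 ± 0.18 (SE) and a limma adjusted p of 0.013, Nutm1, a gene known from testis, and the odorant receptor Or5ak4. Nutm1 was well above background on 0 of the 8 arrays and Or5ak4 on 1, so neither has a measured difference. Capn5 differed by -0.45 without the block, with an adjusted p of 1.00. The block fit links the groups through all animals that share a slide, and AU_iTBS animal 3, the only hippocampus array on its slide, carried no information in it. The selection rule of the study's methods requires among others a false discovery rate under 0.3, taken here over probes that pass an analysis of variance. It was run without the filter on dim probes and chose 34 of 45208 probes, 25 higher and 9 lower in AI_Sham. Probes of Tec, Col6a2, Isg15 and Col1a1 were among the 25, and probes of Smpd2 and Zap70 among the 9. None of the genes named next passed the limma test that opens this paragraph, and they are given as levels and differences.

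The 12 genes with the smallest p among those higher in AI_Sham included Rec114, Tec, Rhod, Rcvrn, Gpha2, Slc29a1, Apol9a, Col6a2, Col3a1, Bmp2 and Slc10a4, each with an adjusted p of 1.00. Since they were chosen by that p, their values are a description. In 8 of the 12, the 4 AI_Sham animals lay above all 4 AU_Sham animals, which the choice by p favors, against 0.606% of all probes.

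Several of the 12 encode signaling proteins. Tec, a nonreceptor tyrosine kinase of blood cells, had levels of 2.81, 2.79, 2.41 and 2.40 in AU_Sham and of 3.28, 3.19, 3.30 and 3.21 in AI_Sham. All 4 AI_Sham animals were close to each other and above every AU_Sham animal, and the difference was 0.64 ± 0.16 (SE). Rhod, a small GTPase of endosome traffic, was between -0.61 and -0.12 in AU_Sham and between 0.06 and 0.70 in AI_Sham, a difference of 0.70 ± 0.18 (SE). Bmp2, a secreted growth factor of the transforming growth factor family, was between -0.08 and 0.54 in AU_Sham and between 0.58 and 0.72 in AI_Sham, a difference of 0.45 ± 0.13 (SE). The second tested Bmp2 probe was above background on none of the 8 arrays. Gpha2, an alpha subunit of a glycoprotein hormone, was -0.97 to -0.58 in AU_Sham and 0.36, 0.61 and 0.83 in AI_Sham animals 1, 2 and 3, while AI_Sham animal 4 lay among the AU_Sham animals at -0.84.

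Transport and matrix genes made up much of the rest. Slc29a1, a nucleoside transporter that carries adenosine across the cell membrane, had levels of 3.21, 3.29, 3.16 and 3.06 in AU_Sham and of 3.41, 3.57, 3.44 and 3.50 in AI_Sham. The groups did not overlap and the difference, 0.30 ± 0.08 (SE), was the smallest of the 12. Slc10a4, a transporter of synaptic vesicles, differed by 0.96 ± 0.29 (SE) with overlapping groups, and it was 0.43 lower in AI_Sham than in AU_Sham within the shared slide. Apol9a, of the apolipoprotein L family, differed by 0.61 ± 0.17 (SE) without overlap, and signal from closely related family members on its probe cannot be told apart. Col6a2, a chain of collagen VI, had levels of 3.01, 3.21, 3.14 and 3.13 in AU_Sham and of 3.75, 3.86, 4.41 and 3.59 in AI_Sham, a difference of 0.78 ± 0.22 (SE). Its second tested probe differed by 0.64 ± 0.32 (SE). Col3a1, a chain of fibrillar collagen III, had levels of 0.12, -0.50, -0.99 and -0.80 in AU_Sham and of 1.66, 0.23, 2.69 and -0.18 in AI_Sham, so that the difference of 1.64 ± 0.48 (SE) came with an AI_Sham animal below the highest AU_Sham animal. In Col3a1 and Col6a2 the animal with the highest level was AI_Sham 3, also the highest in the summed markers of the meninges, and the part of the markers in these differences was not tested. Rec114, a protein of meiotic recombination, was -0.35 to -1.26 in AI_Sham and -2.94 to -1.78 in AU_Sham, where it was above background on 1 of 4 arrays. Rcvrn, recoverin, a calcium sensor of photoreceptors, was -2.45 to -1.97 in AU_Sham and -1.88 to -1.38 in AI_Sham.

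The 12 named genes with the smallest p among those lower in AI_Sham were Cyct, Krt9, Lgi1, Pafah1b1, Opn4, Tmem165, Smpd2, Zap70, Ociad1, Adgrg5, Usp31 and Cenpi, again each with an adjusted p of 1.00. In 9 of the 12, all AI_Sham animals lay below all AU_Sham animals, against 0.699% of all probes. Lgi1, a secreted protein of the synapse that is mutated in an inherited epilepsy, had levels of 4.26, 4.16, 4.59 and 4.28 in AU_Sham and of 3.95, 4.03, 3.83 and 4.00 in AI_Sham. Every AI_Sham animal was below every AU_Sham animal, and the difference was -0.37 ± 0.10 (SE). Pafah1b1, a regulator of the dynein motor known as Lis1, had levels of 3.25, 3.08, 2.98 and 3.32 in AU_Sham and of 2.62, 2.93, 2.90 and 2.87 in AI_Sham, a difference of -0.33 ± 0.09 (SE). Smpd2, a sphingomyelinase that releases ceramide, was 2.31 to 2.88 in AU_Sham and 1.96 to 2.12 in AI_Sham, a difference of -0.54 ± 0.15 (SE). Zap70, a tyrosine kinase of T cells, was 2.10 to 2.86 in AU_Sham and 1.66 to 2.05 in AI_Sham, a difference of -0.57 ± 0.16 (SE). Ociad1, a membrane protein of mitochondria and endosomes, was among the brightest of the 12 probes, at 5.21 to 5.47 in AU_Sham and 4.68 to 5.14 in AI_Sham, a difference of -0.35 ± 0.10 (SE).

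Opn4 (melanopsin), Tmem165 (a protein of the Golgi) and Usp31 (a ubiquitin protease) differed by -0.49 ± 0.14, -0.34 ± 0.10 and -0.39 ± 0.11 (SE), and only Tmem165 had overlapping groups. A second Usp31 probe differed by -0.20 ± 0.18 (SE). Adgrg5, an adhesion receptor, differed by -1.43 ± 0.42 (SE) with overlap, and by -0.27 ± 0.22 (SE) on its second probe. The remaining members were dim. Cyct, the cytochrome c of testis, had levels of -2.81, -2.37, 0.08 and -1.65 in AU_Sham and of -4.84, -3.31, -4.13 and -4.97 in AI_Sham, in which it was not well above background on any array. Against the lowest signal measured above background, Cyct was at least 2.83-fold lower in AI_Sham. Krt9, a keratin of skin, and Cenpi, a protein of the centromere, were likewise not well above background in any AI_Sham animal and were above it in 3 of 4 AU_Sham animals, and they were at least 1.67-fold and 1.54-fold lower. In Krt9 the 1 dim AU_Sham animal was animal 1, at -4.84 against -2.19 to -1.03 in the others, so on the shared slide both Krt9 readings were dim and give no direction. Krt9 was called, lower in AI_Sham, when only animals of scan batch 1 were used. The difference there was -3.26 ± 0.37 (SE), with a limma adjusted p of 0.029. With array weights both Cyct and Krt9 were called, at a limma adjusted p of 0.035. The largest weight of the 8 arrays, 2.56, was that of AU_Sham animal 3, the highest AU_Sham animal in both genes. AU_Sham animals 1 and 4 had weights of 0.32, so these calls lean on 1 animal. Krt9 was well above background in 3 AU_Sham animals and in no AI_Sham, AU_iTBS or AI_iTBS animal. Among the aged animals, only the group in which Krt9 was high thus met the filter on dim probes. Its calls and its bound are therefore not independent of that filter. Cyct was well above background in 4 AU_Sham, 2 AI_iTBS and no other aged animals, so its call and bound share this limit. The rule for naming, above background in at least 3 of 4 animals of a group, was met by Cyct, Krt9, Cenpi and Adgrg5 only through AU_Sham. Rec114 met it only through AI_Sham. The values of these genes, and the bound of Cenpi, are thus not independent of the group in which they were high.

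**Figure D1:**
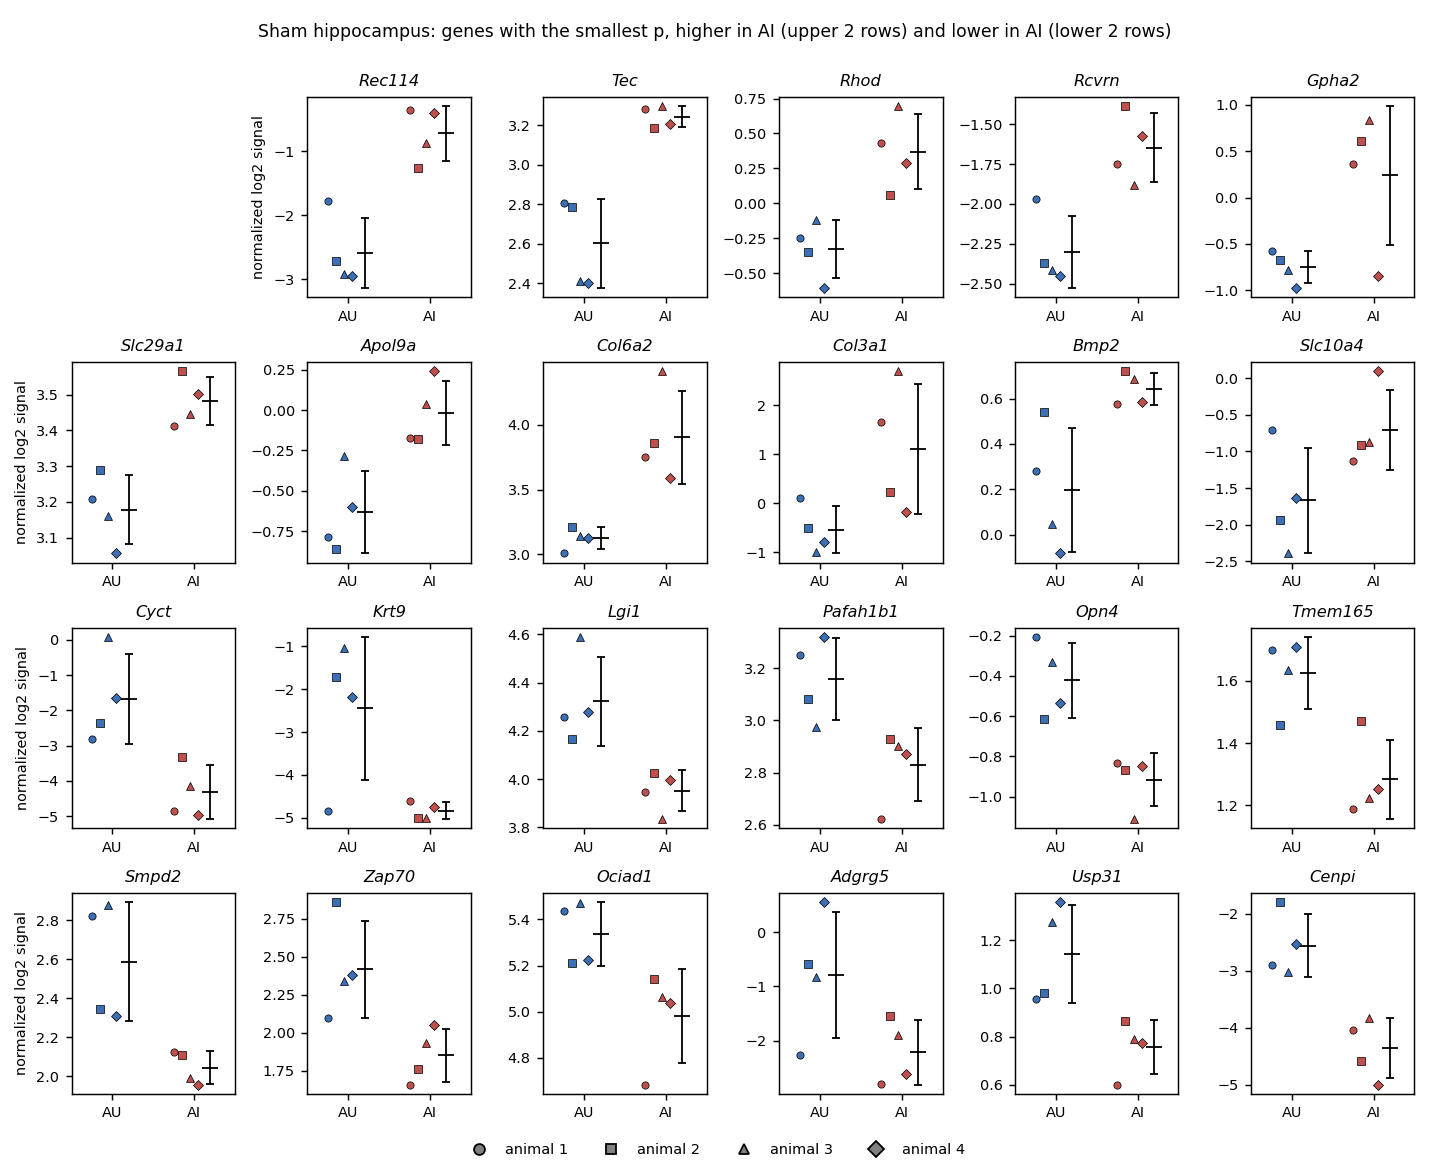
Normalized log2 signal (y axis, a separate scale in each panel) of 23 of the 24 genes in each sham hippocampus, with AU_Sham in blue and AI_Sham in red, a symbol for each animal number, and a bar for the mean ± SD. In 8 of the 11 genes of the upper rows and 9 of the 12 of the lower rows, the points of the 2 groups do not overlap.

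The 24 genes were then read in the stimulated animals. Their difference between AI and AU did not enter the choice, but they shared the estimate of the spread behind the p that chose the genes, and the filter on dim probes. Between AI_iTBS and AU_iTBS, 0 of 32171 probes were called (0%) and 3.85% reached an unadjusted p under 0.05, with 1.71% higher and 2.14% lower in AI_iTBS. The difference had the same sign as in the sham animals for 20 of the 24 genes, beside 61.1% of all probes, and 4 of the 24 also reached an unadjusted p under 0.05 with that sign. Slc29a1 had levels of 3.66, 3.48 and 3.80 in AI_iTBS and of 3.27 to 3.45 in AU_iTBS, without overlap, and the difference of 0.31 ± 0.09 (SE) was close to the 0.30 of the sham animals. Apol9a had levels of 0.69, 0.40 and 0.19 in AI_iTBS and of -0.48 to 0.15 in AU_iTBS, again without overlap, with a difference of 0.62 ± 0.18 (SE). Tec differed by 0.47 ± 0.16 (SE), and Smpd2 by -0.35 ± 0.16 (SE) with overlapping groups. Cyct went the other way. It was well above background in 2 of 3 AI_iTBS animals and in no AU_iTBS animal, at least 1.26-fold higher in AI_iTBS. Gpha2, Col3a1 and Adgrg5 also had the opposite sign, at -0.15, -0.33 and 0.19. The difference between the 2 status contrasts passed the test in none of the probes (0%), and 1.80% had an unadjusted p under 0.05. The smallest adjusted p of that test among the 24 genes was 0.89, for Cyct. Status was less tied to the slide here than in the sham animals. AI_iTBS animals 2 and 3 lay on slide 2 with AU_iTBS animals 4 and 5, and AI_iTBS animal 1 lay on slide 7 with AU_iTBS animals 1 and 2. AU_iTBS animal 3 was the only hippocampus array on its slide.

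**Figure D2:**
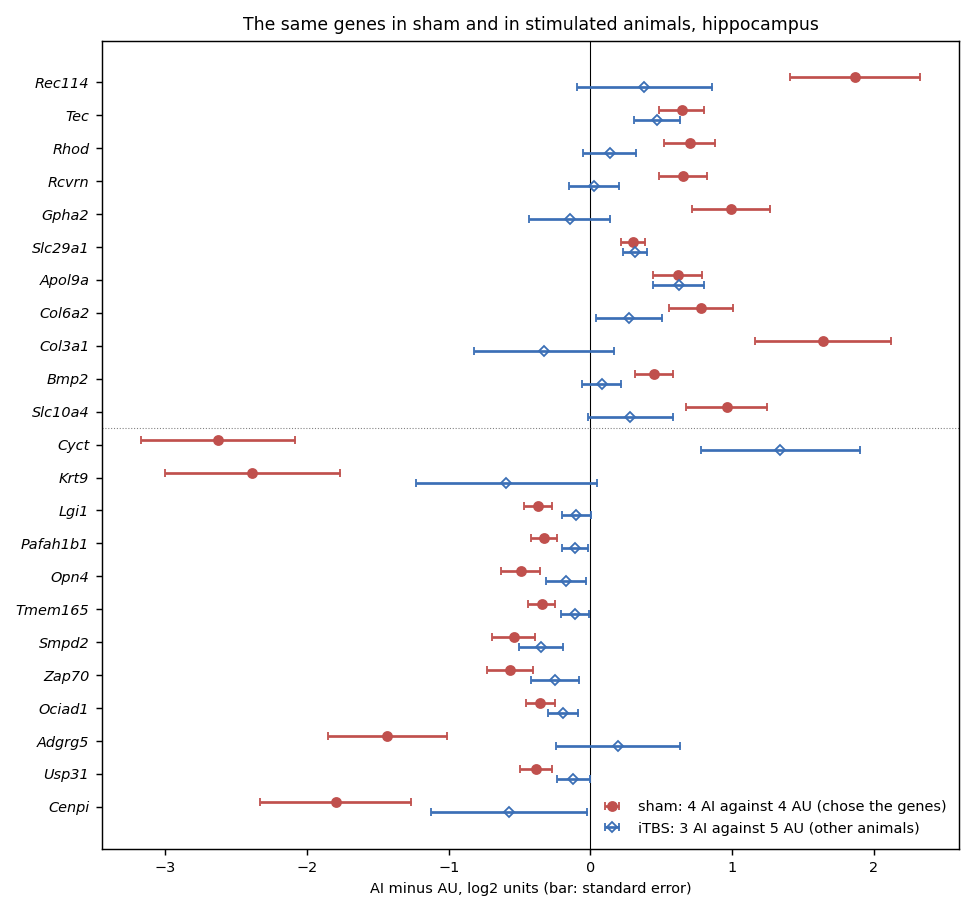
Difference AI minus AU in log2 units (x axis) for 23 of the 24 genes in hippocampus, as circles for the sham animals that chose them and as open diamonds for the stimulated animals, with bars of 1 SE. Slc29a1 and Apol9a have nearly the same difference in both, Cyct lies on opposite sides, and most other diamonds lie nearer to 0 than the circles.

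In the parietal cortex of the same 8 sham animals, 0 of 32330 probes were called (0%) and 6.23% reached an unadjusted p under 0.05. Of the 24 genes, 22 were tested there, and 11 had the sign seen in hippocampus, beside 55.3% of all probes tested in both regions. Rec114 was the only 1 of them with an unadjusted p under 0.05 and the same sign, at a difference of 2.29 in cortex. The difference between regions within each animal was called for 0 probes (0%), with 4.45% at an unadjusted p under 0.05. Young sham rats gave no common direction, since their mean lay nearer to AU_Sham in 13 of the 24 genes and nearer to AI_Sham in 11.

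Averaged over sham and stimulated animals, 7 AI against 9 AU, 1 of 32171 probes was called (0.00311%), with 7.06% at an unadjusted p under 0.05. It is a probe for Pds5b (NM_001101805), a protein that holds cohesin on chromosomes, and this probe was singled out after its values were seen. Its level was -2.00, -1.76, -2.29 and -2.14 in AU_Sham and -1.96, -1.95, -1.89, -2.25 and -2.21 in AU_iTBS, and it was well above background in all 9 animals. In AI_Sham it was -3.18, -3.16, -2.38 and -3.06, and in AI_iTBS -3.20, -3.65 and -2.74, and it was well above background in 1 of these 7. All 7 AI animals lay below all 9 AU animals, which the choice of the probe by its call favors, and the share of all probes that did so was not counted. The difference was -1.02 ± 0.13 (SE) with a limma adjusted p of 0.0037, and in the sham animals alone it was -0.90 ± 0.18 (SE) with an adjusted p of 1.00. It was also well above background in the 8 young animals. The call was lost when the arrays were scaled to their 75th percentile, with normexp background correction, and when only probes above the mean of the arrays were kept. The probe lay near background in AI animals, and a much brighter second Pds5b probe, at 6.21 in AU_Sham and 6.02 in AI_Sham, differed by -0.15 ± 0.10 (SE) over the same animals with an adjusted p of 0.83. In parietal cortex the difference of the first probe was -0.83 ± 0.59 (SE), and the groups overlapped.

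**Figure D3:**
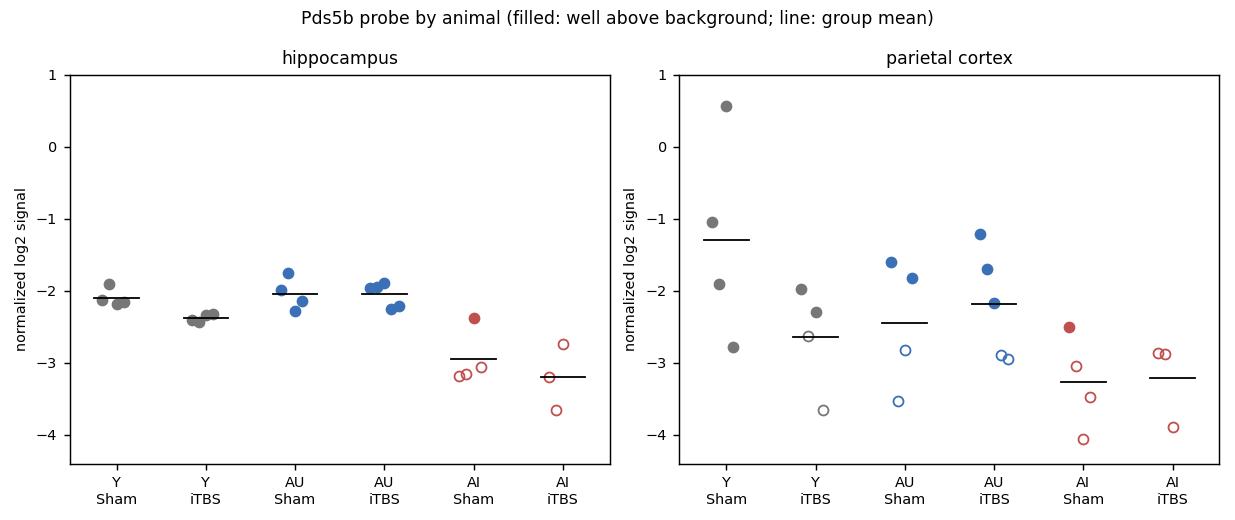
Normalized log2 signal of the first Pds5b probe (y axis) in every animal by group, in hippocampus and in parietal cortex, with filled points well above background and a line at each group mean. In hippocampus the 7 AI animals lie below all AU animals, and in cortex the groups overlap.

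For the lists of genes that share a role, counts of signs and medians describe the members, beside 45.9% of all probes above 0 and a median of -0.02 over all probes. None of the members of the 39 lists was called. The 2 lists with the largest medians were markers of tissue that borders the hippocampus. All 12 tested markers of the meninges and fibroblasts were higher in AI_Sham, with a median of 0.83, and 6 had an unadjusted p under 0.05. They were Col3a1, Col1a1 and Col1a2, which encode fibrillar collagens, Igfbp2, a binding protein of insulin-like growth factors, Dcn, the matrix proteoglycan decorin, and Slc22a6, an organic anion transporter. Col1a1 had levels of 1.29, 0.77, 0.46 and 0.53 in AU_Sham and of 2.78, 1.31, 3.60 and 0.96 in AI_Sham, high in AI_Sham animals 1 and 3. Without these 2 animals the median of the list was 0.11, 9 of 12 members were higher and none reached an unadjusted p under 0.05. In the stimulated animals the median was -0.37 and 1 of 12 was higher, with summed levels of 8.55 to 9.72 in AU_iTBS and of 9.12 to 9.19 in AI_iTBS.

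All 14 tested choroid plexus markers were higher in AI_Sham, with a median of 0.97, and 3 of them, Tmem72, Aqp1 and Sostdc1, had an unadjusted p under 0.05. The choroid plexus, which makes cerebrospinal fluid, lies in the ventricle beside the hippocampus. Ttr, transthyretin, its most abundant secreted protein, had levels of 5.03, 6.21, 7.76 and 7.43 in AU_Sham and of 10.7, 7.17, 9.77 and 7.51 in AI_Sham, a difference of 2.18 ± 1.07 (SE) with overlapping groups. Aqp1, its water channel, was 2.17 to 2.71 in AU_Sham, 4.37 and 4.20 in AI_Sham animals 1 and 3, and 2.39 and 2.50 in AI_Sham animals 2 and 4. Tmem72 and Cldn2, a tight junction protein, were not well above background in any AU_Sham animal and were above it in 2 AI_Sham animals, and they were at least 1.5-fold and 1.59-fold higher. Without AI_Sham animals 1 and 3 the median of the list was -0.05 and 7 of 14 members were higher. Within the shared slide, in which AI_Sham animal 1 is 1 of the pair, all 14 were higher, with a median of 2.38. In the stimulated animals the median was -0.29 and 4 of 14 were higher. The summed level was 8.44, 11.2, 6.41, 5.53 and 6.83 in AU_iTBS and 9.21, 6.54 and 8.31 in AI_iTBS. The highest was an AU_iTBS animal, the groups overlapped, and Ttr was 0.45 higher in AI_iTBS. All 7 tested markers of the thalamus and habenula were higher too, with a median of 0.32 that became -0.12 without the same 2 animals, and their summed level was highest in AI_Sham animals 1 and 3, at 7.73 and 8.05 against 6.32 to 6.93 in AU_Sham. Slc17a6, a vesicular glutamate transporter that is strong in thalamus, was the exception, at 4.56 to 5.14 in all 4 AI_Sham animals and at 4.29, 4.92, 2.59 and 3.49 in AU_Sham.

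**Figure D4:**
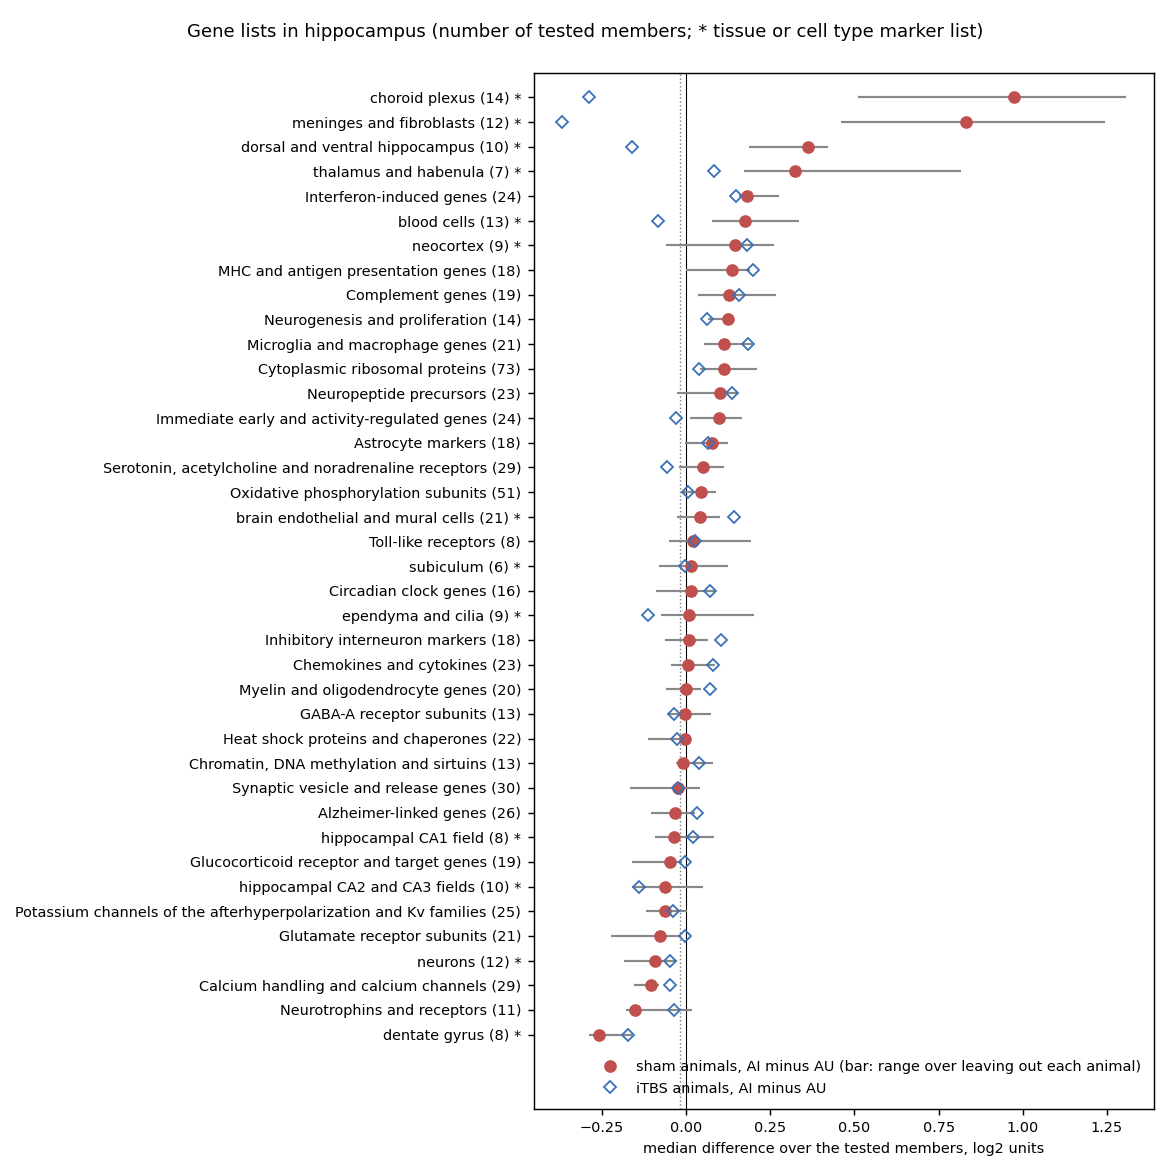
Median difference AI minus AU over the tested members of each list (x axis, log2 units), as red circles for sham animals with a bar for the range when each animal in turn is left out, and as open diamonds for stimulated animals. The dotted line is the median over all probes. Choroid plexus and meninges lie farthest to the right in sham animals and left of 0 in stimulated animals, and the dentate gyrus lies farthest to the left.

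Of the 6 immune lists, 4 had medians above 0.1 in AI_Sham. The other 2 lay near 0, with 12 of 23 chemokines and cytokines higher (median 0.0072) and 5 of 8 Toll-like receptors higher (median 0.02). Of 24 tested interferon-induced genes, which cells switch on in response to viral or other foreign nucleic acid, 21 were higher, with a median of 0.18, and Isg15, Ifi44 and Gbp5 had an unadjusted p under 0.05. Isg15, a ubiquitin-like modifier, had levels of 1.34, 1.85, 1.64 and 1.49 in AU_Sham and of 2.13, 2.00, 2.40 and 2.02 in AI_Sham, without overlap, and a difference of 0.56 ± 0.24 (SE). Ifi44, a protein of the antiviral response, was 2.24 to 2.81 in AU_Sham and 2.62 to 3.18 in AI_Sham, a difference of 0.43 ± 0.20 (SE). Gbp5, a guanylate-binding GTPase of cell defense, was -0.34 to 0.78 in AU_Sham and 0.30 to 0.91 in AI_Sham, also a difference of 0.43, but within the shared slide it was 0.48 lower in AI_Sham. The median of the list was 0.12 without AI_Sham animals 1 and 3, with 15 of 24 higher, and -0.02 within the shared slide, with 10 of 24 higher. With the slide block it was 0.27, with 22 of 24 higher, beside a median of -0.05 over all probes. In the stimulated animals it was 0.15, with 19 of 24 higher. In the parietal cortex of the sham animals the median over the members tested there was 0.20.

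Because interferon-induced genes are switched on through an element that binds factors of the STAT and IRF families, their promoters were read for the letters of that element. The sequences are RefSeq promoters of the rat build GRCr8, 300 bases that run from 250 before to 50 after each gene's start, and 17 of the 24 genes had an entry. The letters GAAA, any 2 bases and GAAA again, or TTTC, any 2 bases and TTTC on the other strand, were found in 13 of the 17 promoters (76.5%) and in 1312 of all 33469 promoters of that length (3.92%). Isg15 was among the genes without an entry. The promoters of the other 2 genes with the lowest p are shown because both hold the element close to the start of the gene, with the matching letters in capitals. The matches begin 26 bases before and 26 bases after the start in Ifi44 (chr2:243303791-243304090, minus strand) and 56 bases before it in Gbp5 (chr2:233910749-233911048, plus strand), and each is read 5′ to 3′ along its gene.
Ifi44: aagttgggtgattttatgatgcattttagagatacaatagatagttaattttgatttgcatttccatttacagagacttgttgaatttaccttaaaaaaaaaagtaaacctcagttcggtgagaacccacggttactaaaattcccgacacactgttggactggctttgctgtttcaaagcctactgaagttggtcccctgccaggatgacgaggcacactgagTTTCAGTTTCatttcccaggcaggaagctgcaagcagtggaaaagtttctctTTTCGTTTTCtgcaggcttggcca
Gbp5: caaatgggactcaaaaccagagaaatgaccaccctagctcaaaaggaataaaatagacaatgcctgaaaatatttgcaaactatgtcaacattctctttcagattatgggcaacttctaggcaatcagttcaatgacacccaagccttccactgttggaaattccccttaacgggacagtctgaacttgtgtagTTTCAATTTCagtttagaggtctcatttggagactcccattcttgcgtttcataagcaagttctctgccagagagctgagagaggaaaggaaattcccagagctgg
Of the 13 genes whose promoter held the letters, 11 were higher in AI_Sham, with a median of 0.36. Of the 4 without them, 3 were higher, with a median of 0.07. These counts describe the genes with an entry, and whether the 2 groups of genes differ was not tested.

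Genes of microglia and of complement, the cascade of proteins that tags material for removal, were higher in AI_Sham in 16 of 21 and in 16 of 19 members, with medians of 0.11 and 0.13. Cd68, a lysosomal protein of phagocytes, had levels of 1.92, 2.21, 2.18 and 2.35 in AU_Sham and of 2.92, 2.27, 2.86 and 2.57 in AI_Sham, a difference of 0.49 ± 0.16 (SE) that was 0.31 in the stimulated animals. Clec7a, a receptor for fungal glucan that marks reactive microglia, was -0.19 and -0.36 in AI_Sham animals 1 and 3, -1.32 and -1.62 in animals 2 and 4, and -1.88 to -0.88 in AU_Sham. Cfd, complement factor D, differed by 0.68 ± 0.26 (SE) and was highest in AI_Sham animal 3, at 3.63. C3, the central complement protein, differed by 0.10 ± 0.32 (SE). Both medians rested on AI_Sham animals 1 and 3. Without them they were -0.05 and -0.06, with 10 of 21 and 7 of 19 members higher, and the part of the choroid plexus and meninges markers, which were high in the same animals, was not tested. With the slide block the medians of microglia and complement genes were 0.31 and 0.24, with 17 of 21 and 17 of 19 higher. In the stimulated animals they were 0.19 and 0.16, with 18 of 21 and 15 of 19 higher. MHC and antigen presentation genes were higher in 13 of 18, with a median of 0.14. Without AI_Sham animals 1 and 3, 8 of 18 were higher with a median of -0.01, and within the shared slide 8 of 18 with a median of -0.06. With the slide block 11 of 18 were higher, with a median of 0.18. Cd74, the invariant chain of MHC class II, differed by 0.17 ± 0.53 (SE). Of the chemokines, Cxcl13, which attracts B cells, was not well above background in AU_Sham and was above it in 2 AI_Sham animals, at least 1.16-fold higher. Ccl3, which attracts macrophages, was lower in AI_Sham by -0.43 ± 0.22 (SE) without overlap, and was 0.35 higher in AI_iTBS than in AU_iTBS.

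**Figure D5:**
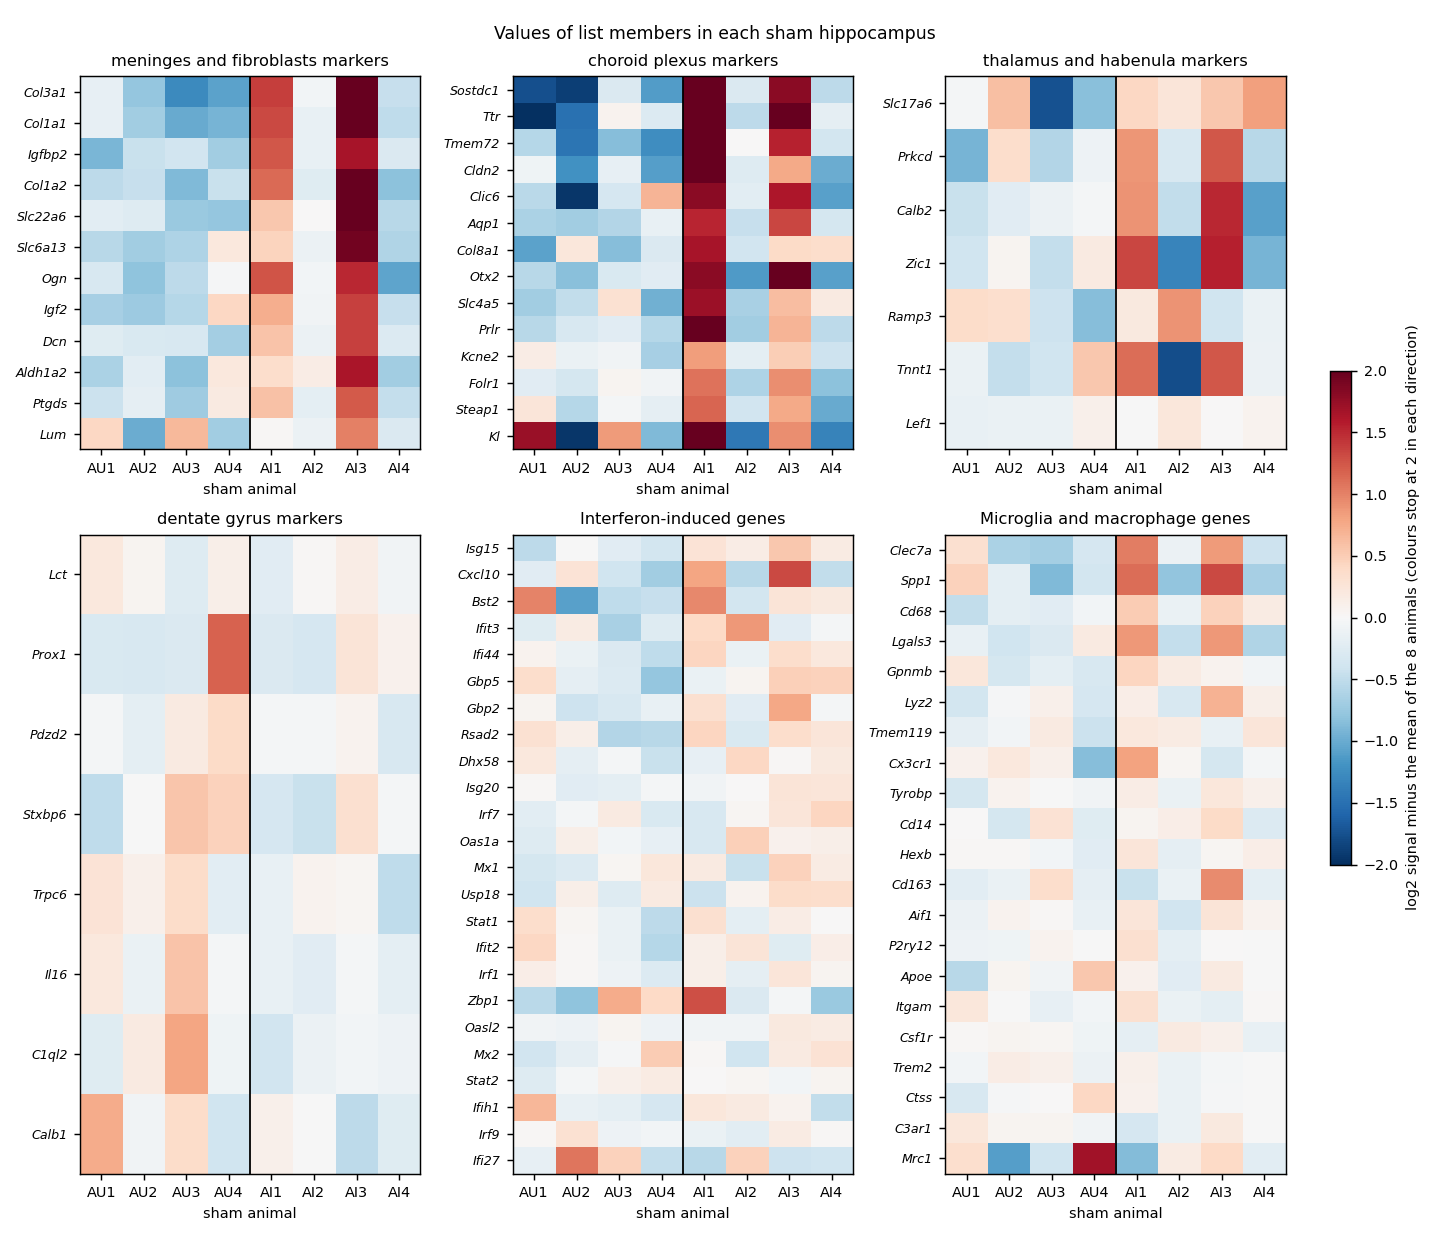
Level of each tested member in each sham animal, as log2 signal minus the mean of the 8 animals, for 6 lists, with AU_Sham to the left and AI_Sham to the right of the black line. The markers of meninges and choroid plexus are high in AI_Sham animals 1 and 3 and near the AU_Sham values in animals 2 and 4.

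Several neuronal lists had medians below 0. All 8 tested dentate gyrus markers were lower in AI_Sham, with a median of -0.26, and all 8 were also lower in the stimulated animals, with a median of -0.17. Il16, in this tissue a granule cell marker, had levels of 4.81, 4.47, 5.17 and 4.56 in AU_Sham and of 4.46, 4.38, 4.56 and 4.41 in AI_Sham, a difference of -0.30 ± 0.14 (SE), and it was the only member with an unadjusted p under 0.05. The summed level of the 8 was 7.58 to 8.43 in AU_Sham and 7.45 to 7.83 in AI_Sham, so the groups overlapped. The median was -0.28 without AI_Sham animals 1 and 3, and within the shared slide 5 of 8 were lower. With the slide block all 8 were lower, with a median of -0.31. In the parietal cortex of the same sham animals the median over the members tested there was also -0.17. A lower median of these genes was therefore not particular to the hippocampus. In CA2 and CA3, Grik4, a kainate receptor subunit, differed by -0.42 ± 0.13 (SE) and by 0.01 in the stimulated animals, and Cpne4, a calcium-binding copine, was 5.87 to 6.43 in AU_Sham and 5.49 to 5.86 in AI_Sham without overlap, while the median of the 10 members was -0.06. Of 12 neuronal markers 10 were lower, with a median of -0.09. The direction turned with the slide block, to 7 of 12 higher and a median of 0.06, and within the shared slide, to 9 of 12 higher and a median of 0.26, and without AI_Sham animals 1 and 3 the median was -0.0022.

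Channel genes held several members with lower values in AI_Sham. Of 29 genes of calcium handling 21 were lower, with a median of -0.10, and of 25 potassium channels 18 were lower, with a median of -0.06. Within the shared slide 15 of the 29 calcium genes were higher, with a median of 0.05, and without AI_Sham animals 1 and 3 the potassium channels turned to 18 of 25 higher, with a median of 0.03. Cacna1c, a pore subunit of the L-type calcium channel, had levels of 3.49, 3.53, 3.99 and 3.51 in AU_Sham and of 3.40, 3.34, 3.45 and 3.43 in AI_Sham. All AI_Sham animals were lower, the difference was -0.22 ± 0.10 (SE), and AU_Sham animal 3 stood above the other 7. Atp2b3, a calcium pump of the cell membrane, and Cacnb2, a channel subunit, also had groups that did not overlap, with differences of -0.32 and -0.27. In 3 of the 29 calcium genes all AI_Sham animals lay below all AU_Sham animals and in 1 above, beside 0.699% and 0.606% of all probes. An unadjusted limma p under 0.05 was reached by 3 of the 29, all lower, beside 1.98% of all probes that were lower. The differences of the list ran from -0.46 to 0.83. Kcnq5, which carries the M current that dampens firing, differed by -0.34 ± 0.15 (SE) with overlapping groups and by 0.01 in the stimulated animals. Of 21 glutamate receptor subunits 14 were lower, with a median of -0.08, but with the slide block 12 of 21 were higher (median 0.09) and within the shared slide 15 of 21 (median 0.20). The stress-response gene Fkbp5, which glucocorticoids induce, was lower by -0.29 ± 0.11 (SE) in AI_Sham and by -0.24 in AI_iTBS, whereas the glucocorticoid receptor gene Nr3c1 differed by 0.09 ± 0.10 (SE).

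None of the genes often followed in aged memory passed the test, and most differed by less than 2 SE. The interneuron genes Sst, Npy, Gad1 and Pvalb differed by 0.15 ± 0.26, -0.03 ± 0.19, 0.14 ± 0.16 and 0.00 ± 0.18 (SE), and of the 18 interneuron markers 10 were higher, with a median of 0.01. Gabra5, the GABA-A receptor subunit that is rich in hippocampus, differed by -0.29 ± 0.19 (SE). Among genes switched on by neuronal activity, Fos differed by 0.58 ± 0.33, Egr1 by 0.41 ± 0.27, Arc by 0.11 ± 0.22 and Homer1 by -0.05 ± 0.10 (SE), and Bdnf, a growth factor for neurons, by -0.22 ± 0.26 (SE). Fos in AU_Sham ran from -0.46 to 0.98 and in AI_Sham from -0.28 to 1.73, so the groups overlapped. Of the 24 genes of this list 15 were higher, with a median of 0.10. Gfap, the filament of astrocytes, differed by -0.15 ± 0.18 (SE) and Mbp, a myelin protein, by -0.19 ± 0.13 (SE). Of 73 cytoplasmic ribosomal protein genes 69 were higher, with a median of 0.11 that was 0.05 when arrays were scaled to the 75th percentile, and none had an unadjusted p under 0.05. Without AI_Sham animals 1 and 3, 32 of the 73 were higher, and the median was -0.01. With the slide block all 73 were higher, with a median of 0.38 and 37 at an unadjusted p under 0.05, beside 11.3% of all probes in either direction.

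The slide was given beside the 24 genes. With the slide as a block all 24 kept their sign, beside 75.4% of all probes, and within the shared slide 22 of 24 did, beside 63.6%. Slc10a4 and Krt9 were the exceptions, and for Krt9 both readings on that slide were not above background. Without AI_Sham animals 1 and 3, and in the animals of scan batch 1 alone, all 24 kept their sign, beside 75.9% and 79.7% of all probes. These shares come from the animals that chose the genes and are no independent evidence of their direction.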

How the data were processed

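The 48 first arrays of 24 animals and 2 regions were grouped by their titles. 7 technical repeats, 3 of them of hippocampus and none of the 8 animals compared, entered only an alternative, and 1 array in no group was left out. The authors labeled total RNA with Cy3, hybridized it to Agilent SurePrint G3 Rat v2 arrays and deposited 1 scanner file for each array, with the background-subtracted processed signal intensity of each spot and no normalization between arrays. They also deposited a table of z-scores, a score per feature, which differed from values recomputed here from the log signal by at most 0.005.

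Spots marked non-uniform or outlying were dropped (374 to 524 on the 8 arrays) and copies of a probe averaged. The log2 of the deposited intensity was centered and scaled within each array and multiplied by the mean SD (4.09). Probes well above background in at least 3 of 24 hippocampi, with no missing value, were tested (32171), with group means of 6 groups in limma 3.58.1 (R 4.3.3), eBayes and Benjamini-Hochberg adjustment over all probes tested, two-sided, called at an adjusted p under 0.05. Regions were compared by differences within animals. A gene in a list is its brightest tested probe. A probe's symbol came from RefSeq names of GRCr8 by accession (46.3% of 45598 probes), so unnamed probes were tested without a name. The named genes were the 12 in each direction with the smallest p, above background in at least 3 of 4 animals of a group, besides fixed genes and the 2 members with the smallest p in each list. 2 of the genes so named are not reported here and stay only in the counts. For a gene not above background in 1 group, the fold is a bound against the lowest signal measured above background.

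The animals compared, the gene lists and the rules were chosen with earlier results of these data known. Alternatives covered normalization (75th percentile, quantile, the z-score table), normexp on the median spot signal, which was used because the mean signal is not in the files as read here, filters, slide, scan batch and replicate blocks, array weights, the study's selection rule and leaving out each animal. The rule's z-test used a normal p and its false discovery rate covered probes passing the analysis of variance over 6 groups, details that the study's methods do not state. The fit was run on simulated arrays with independent noise and no effect of the slide, so that run cannot show how the slide bears on the results. The number of arrays limits the precision, and p-values measure the spread between these animals.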

Additional observations from a re-analysis of the deposited data

Results flagged for a closer look

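In 244 groups of values of 110 genes, 10 groups (4.10%) held an animal whose gap to its nearest neighbor was a larger share of the group's range than Dixon's critical value for its size, 0.829 for 4 animals and 0.710 for 5, and chance alone gives about 1 group in 20. The share and the level of that animal are given for each. In AU_Sham they were 0.836 for Rcvrn (animal 1, -1.97 against -2.45 to -2.37), 0.909 for Cacna1c (animal 3, 3.99 against 3.49 to 3.53), 0.890 for Atp2b3 (animal 2, 2.41 against 2.64 to 2.67), 0.838 for Ccl3 (animal 1, 0.64 against 0.11 to 0.20) and 0.902 for Atp5f1b (animal 1, 6.63 against 6.80 to 6.82). In AI_Sham they were 0.886 for Opn4 (animal 3, -1.11 against -0.87 to -0.83), 0.897 for Bcas1 (animal 1, 6.54 against 6.15 to 6.19), 0.849 for Bhlhe40 (animal 4, 3.33 against 2.49 to 2.62) and 0.876 for Adra1d (animal 3, 6.03 against 6.32 to 6.36). In AU_iTBS it was 0.880 for Gpha2 (animal 5, -0.13 against -0.86 to -0.77). The status groups of Rcvrn, Opn4, Cacna1c, Atp2b3, Bcas1 and Ccl3 did not overlap with these animals included.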

How the results depend on the processing

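Settings that left out AI_Sham animals 1 and 3 or kept only scan batch 1, and the leave-one-out fits of the averaged contrast, were chosen after seeing the data. For AI_Sham against AU_Sham the count of 0 called probes became 4 with the slide block, 3 with array weights, 3 with scan batch 1 alone and 34 under the study's selection rule, and stayed 0 when any 1 animal was left out, with 866 to 2221 probes at an unadjusted p under 0.05. For the iTBS contrast (0) it became 1 with normexp and 10 with no filter (45208 probes, as under the study's rule), and ran from 0 to 1 leaving out an animal. For the difference between these contrasts (0) it became 2 with no filter. For the averaged contrast (1) it became 0 with the 75th percentile, with normexp and with a mean z-score above 0, 2 with no filter, 11 with the slide block and 2 with the scan batch block, and ran from 1 to 2 leaving out an animal, with 2 without AU_Sham 1 or 4. The cortex count (0) ran from 0 to 2, with 2 without AU_Sham 3, and the region difference (0) from 0 to 2, with 1 without AU_Sham 2 or AI_Sham 1 and 2 without AU_Sham 4. The causes were not tested.

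Animals of AU and AI with the same number correlated in their deviations at 0.16, 0.15, 0.00 and 0.09, not all above 0.1, so the numbers are not taken to pair them. AI_Sham 1, 2 and 4 correlated best with their own number and AI_Sham 3 with AU_Sham 4. With the replicate block the counts were 0 (sham), 0 (iTBS), 0 (difference), 1 (averaged), 1 in cortex and 0 for the region difference.

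Of 110 genes with a value, none of the 24 chosen by p changed sign under an alternative fit (Slc10a4 and the dim readings of Krt9 did within the shared slide, which allows no test), and 16 others did in 42 values, from -0.49 to 0.08. The slide block gave -0.49 for Tlr1, 0.0022 for Hdac4, -0.22 for Cux2, 0.023 for Npy and 0.080 for Homer1. The random slide block gave -0.10 for Tlr1 and 0.0072 for Homer1. The mean over probes gave -0.0015 for Ntrk2 and -0.0054 for Nr3c1. Without AI_Sham 1 and 3 the values were 0.019 for Atp5f1b, -0.12 for Prkcd, -0.000125 for Gad1, -0.063 for C3 and -0.13 for Cd74. Scan batch 1 alone gave -0.027 for Sst, -0.058 for Pvalb and -0.19 for Arc. Array weights gave -0.0098 for Pvalb and 0.057 for Homer1, and Pvalb was also -0.018 at the 75th percentile, -0.019 with the z-score table, -0.013 with normexp and -0.019 under the study's rule. Leaving out 1 animal gave -0.019 to 0.18 for Ntrk2, -0.083 to 0.34 for Sst, -0.18 to 0.073 for Npy, -0.11 to 0.17 for Pvalb, -0.57 to 0.017 for Bdnf, -0.055 to 0.30 for Arc, -0.088 to 0.015 for Homer1, -0.015 to 0.17 for Nr3c1, -0.037 to 0.24 for C3 and -0.085 to 0.46 for Cd74.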
